A study of Mus musculus with 45 samples.

Results

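The 37 genes of the mouse mitochondrial genome were followed through the differentiation of male E14tg2a embryonic stem cells (ESCs). The members are the genes whose symbols begin with mt-, which is 37 of the 35372 genes in the count tables. They comprise 13 protein-coding genes, 2 rRNA genes and 22 tRNA genes. Wild-type E14tg2a cells of 129/Ola background had been kept either in 2iL (N2B27 with CHIR99021, PD0325901 and LIF) or in SL (serum with LIF). They were then differentiated in 3 ways, named here as in the library titles: EB, embryoid bodies in suspension in serum without LIF, EpiSC, an adherent monolayer in N2B27 with Fgf2 and ActivinA, and Neural, an adherent monolayer in serum-free N2B27. Ribosomal RNA had been depleted and strand-specific libraries had been sequenced for days 0, 1, 1.5, 2, 2.5, 3, 5 and 7, giving 23 libraries from 2iL and 22 from SL. Each medium, course and day had 1 library, the 3 courses from SL shared the day 0 library, and day 5 of the EpiSC course from 2iL was not analysed here. All libraries come from 1 cell line, and the 3 courses of a day stood as its replicates (n = 3), so the spread printed holds course and culture together.

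Mitochondrial DNA encodes subunits of the respiratory chain that cannot be spared: 7 subunits of complex I (NADH dehydrogenase), cytochrome b of complex III, 3 subunits of complex IV (cytochrome c oxidase) and 2 subunits of ATP synthase, together with the rRNAs and tRNAs needed to translate them. Each strand of the circular genome is transcribed as a long precursor, and the tRNAs lie between the other genes and are cut out to release them. All other respiratory subunits, the polymerase and the proteins that process and stabilise these RNAs are encoded in the nucleus. Pluripotent cells and their differentiating progeny are known to differ in how much they rely on glycolysis and on respiration.

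The RNA read as mitochondrial came almost wholly from the 13 mRNAs. All 13 had reads in all 45 libraries. Both rRNAs, mt-Rnr1 and mt-Rnr2, and 20 of the 22 tRNAs were listed at 0 in every library, where 3 reads would correspond to 0.0754 to 0.229 CPM (counts per 1e+06 reads of the library). The tables also list 356 rRNA genes in all, of which 3 had any reads, so the zeros of mt-Rnr1 and mt-Rnr2 are shared by almost all rRNA genes after depletion and counting, and no ratio of rRNA to mRNA could be formed. The tRNAs with reads were mt-Tw, the tRNA for tryptophan, in 42 libraries with at most 29 reads, and mt-Ti, the tRNA for isoleucine, in 10 libraries with at most 3 reads. All results below are therefore on the 13 mRNAs.

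Neighbouring genes on this compact genome overlap, which bears on how reads can be assigned. The gene of mt-Atp8 (chrM:7766-7969, plus strand, GRCm38) ends inside that of mt-Atp6 (chrM:7927-8607, plus strand), and the pair share 43 bases. The sequence of mt-Atp8 is shown with those shared bases in capitals, since a read lying in them belongs to both genes.
mt-Atp8: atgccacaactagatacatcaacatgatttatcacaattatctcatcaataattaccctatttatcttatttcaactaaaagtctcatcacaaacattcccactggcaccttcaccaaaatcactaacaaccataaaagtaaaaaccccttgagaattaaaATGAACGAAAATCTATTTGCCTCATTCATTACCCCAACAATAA
mt-Nd4l and mt-Nd4 share 7 bases on the plus strand. mt-Nd5 (plus strand) and mt-Nd6 (minus strand) share 14 bases on opposite strands, which a strand-specific count can tell apart.

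The nuclear genome holds a close copy of part of the mitochondrial genome on chromosome 1. The annotation of GRCm38 lists it as 7 pseudogenes between chr1:24611535 and chr1:24616197, on the minus strand, and none of them has a row in the count tables. The copies of mt-Nd4, mt-Nd4l, mt-Nd3, mt-Co3, mt-Atp6 and mt-Co2 had 0 mismatches over their aligned bases, and the copy of mt-Co1, Gm29216, had 1 mismatch in 483 aligned bases. A stretch of 120 bases around that mismatch is shown for mt-Co1 (chrM:6390-6509, plus strand) and for Gm29216 (chr1:24616069-24616188, minus strand), with the differing base in capitals.
mt-Co1: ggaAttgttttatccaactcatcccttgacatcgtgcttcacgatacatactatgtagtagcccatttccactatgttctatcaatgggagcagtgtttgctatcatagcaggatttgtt
Gm29216: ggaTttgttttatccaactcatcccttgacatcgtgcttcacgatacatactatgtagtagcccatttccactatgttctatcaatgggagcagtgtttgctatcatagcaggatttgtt
Windows of 50 bases that occur unchanged in a copy made up 99.9% of mt-Co3, 99.5% of mt-Co2 and of mt-Atp6, 98.8% of mt-Nd4l, 98.0% of mt-Nd3, 62.2% of mt-Nd4 and 28.7% of mt-Co1, and 0% of mt-Nd1, mt-Nd2, mt-Nd5, mt-Nd6, mt-Cytb and mt-Atp8. This search covered only the 7 annotated pseudogenes. mt-Atp8 lies between mt-Co2 and mt-Atp6 on the mitochondrial genome, and the nuclear sequence between the copies of that pair was not analysed here. Reads from such stretches cannot be assigned to the mitochondrial or the nuclear copy by sequence, and how the counts treated reads with several positions is not given in the sources used here.

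Levels differed widely between the 13 mRNAs although most of them derive from the same precursor. Per kilobase of gene, the median level over the 45 libraries was highest for mt-Co3 (4032 CPM per kb) and mt-Co1 (3780.5 CPM per kb), both subunits of cytochrome c oxidase. The ATP synthase subunits mt-Atp6 and mt-Atp8 followed with 2775 and 2405 CPM per kb, and mt-Co2, the remaining cytochrome c oxidase subunit, with 2114 CPM per kb. The order of these neighbours is a description, since the ranges over libraries overlap, from 2201 to 9372 CPM per kb for mt-Co3 and from 1207 to 6508 CPM per kb for mt-Atp8.

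Most complex I mRNAs lay lower on the same per-kilobase scale. Medians were 1281 CPM per kb for mt-Nd3, 1064 for mt-Nd1, 699 for mt-Nd2, 460 for mt-Nd4, 326 for mt-Nd5 and 303 for mt-Nd4l, and mt-Cytb of complex III had 589 CPM per kb. The lowest was mt-Nd6, the only mRNA encoded on the light strand (chrM:13552-14070, minus strand), with a median of 152 CPM per kb and a range of 38.5 to 707 CPM per kb. Among all genes of a library, mt-Co1 ranked between 1 and 19 by reads and was among the 10 most abundant in 30 of the 45 libraries.

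**Figure D1:**
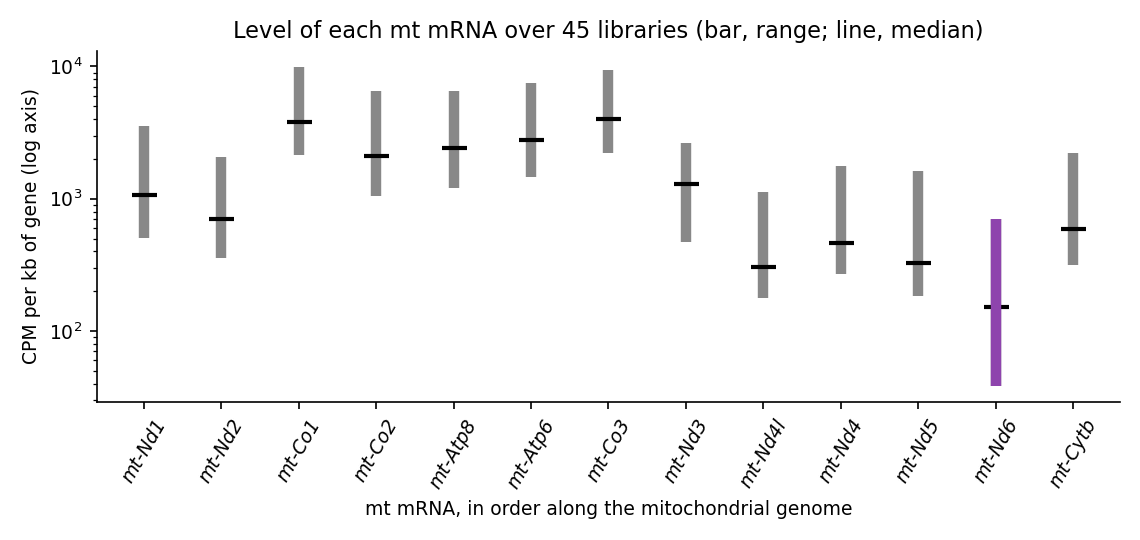
Level of the 13 mitochondrial mRNAs in CPM per kb of gene (log axis), in order along the mitochondrial genome. Grey bars span the lowest to the highest of 45 libraries and black lines mark the median; mt-Co3 has the highest median (4032) and mt-Nd6, in purple, the lowest (152).

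Summed over the 13 mRNAs, mitochondrial reads took from 0.980% to 4.71% of a library. Bulk RNA gives this share relative to all other RNA, so a lower share can mean less mitochondrial RNA per cell, more of other RNA or another mixture of cells, which cannot be told apart. At day 0 in 2iL the share was 4.71% in the EB library, 3.89% in the EpiSC library and 2.33% in the Neural library. These are 3 libraries of undifferentiated ESCs in the same medium, and they already differed by 2.02-fold between EB and Neural. The labels do not say whether they are separate cultures, so the spread at day 0, and with it the comparisons against day 0, may be technical. Their summed naive pluripotency markers (Nanog, Zfp42, Esrrb, Klf2, Klf4, Tfcp2l1, Tbx3) were at 4420, 4252 and 4144 CPM, in the same order as the share but closer together. Their 70 nuclear-encoded respiratory subunits took 0.827%, 0.962% and 0.897% of reads, lowest in the EB library. The part of either in the spread of the share was not tested. The SL day 0 library had 2.78%, inside the range of the 2iL libraries.

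In cells from 2iL the share fell as differentiation went on. The mean over courses was 3.64% ± 1.21 (SD, n = 3) for day 0 and 3.15% ± 0.677 on the next day. It was 1.71% ± 0.746 on day 2, 1.90% ± 0.995 on day 3 and 1.39% ± 0.138 by day 7. In the EB course it went from 4.71% at day 0 to 2.96% at day 3 and 1.34% at day 7, a 3.51-fold fall. In the EpiSC course it went from 3.89% to 1.78% at day 3 and 1.54% at day 7, a 2.52-fold fall. In the Neural course it was 2.33% at day 0, 0.980% at day 3, the lowest of all libraries, and 1.28% at day 7. The day 7 libraries lay close together (1.28% to 1.54%), whereas the day 0 libraries spanned 2.33% to 4.71%, without overlap between the days.

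In cells from SL the share also fell. It was 2.78% in the shared day 0 library and 2.29% ± 0.315 (SD, n = 3) a day later. It was 1.63% ± 0.464 on day 2, 1.53% ± 0.166 on day 3 and 1.28% ± 0.170 by day 7. At day 3 the libraries had 1.72% (EB), 1.42% (EpiSC) and 1.46% (Neural), all under the day 1 values of 2.03%, 2.64% and 2.19%. By day 7 the EB library had 1.09%, the EpiSC library 1.42% and the Neural library 1.33%. The SD over courses was smaller from SL than from 2iL at each of days 1 to 5 with both values.

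**Figure D2:**
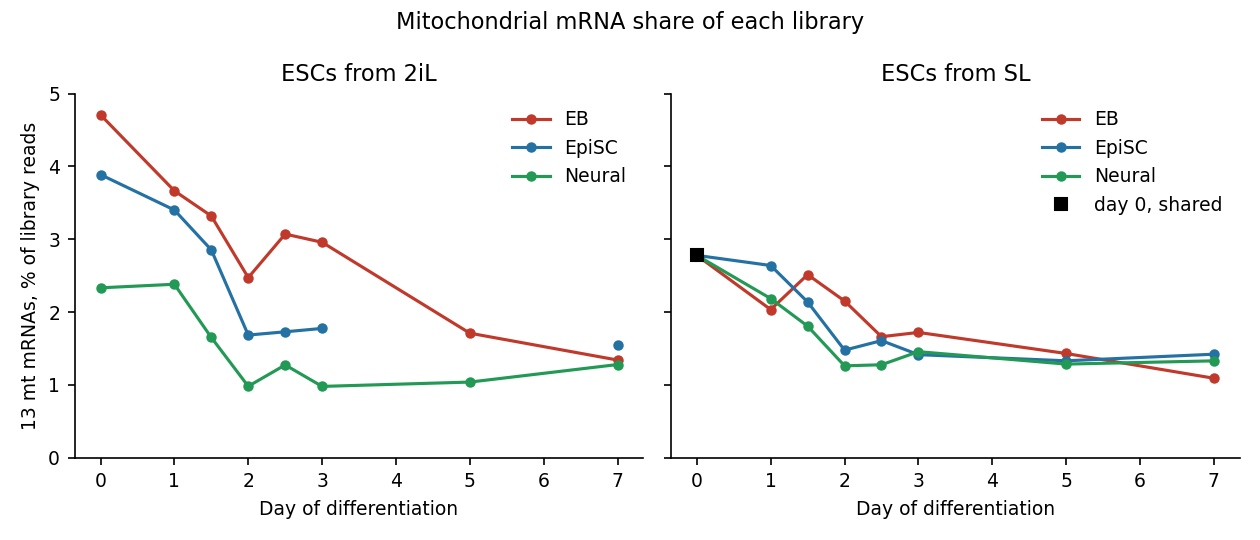
Percent of library reads on the 13 mitochondrial mRNAs by day of differentiation, for ESCs from 2iL (left) and SL (right), with 1 point per library and the courses in colour. From 2iL the courses start apart (2.33% to 4.71%) and lie between 1.28% and 1.54% at day 7; from SL the shared day 0 library (black square) has 2.78% and day 7 lies between 1.09% and 1.42%.

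The first day brought no change that passed the test in either medium. The edgeR quasi-likelihood test with course as block and Benjamini-Hochberg adjustment over all genes tested called 0 of the 13 mRNAs for day 1 against day 0 from 2iL, with 0 at an unadjusted p under 0.05, where 28.6% of 16306 genes were called in either direction. From SL it called 0 of 13 with 1 at an unadjusted p under 0.05, where 18.1% of 16482 genes were called, and there the comparison rests on 1 library at day 0. DESeq2 called 0 in both. The median log2 difference was -0.03 from 2iL and -0.25 from SL.

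Between days 1 and 3 the mitochondrial mRNAs fell in both media. From 2iL, 11 of 13 fell, with a median log2 difference of -0.96 (1.94-fold lower), where 45.6% of all genes tested were called in either direction, 23.6% higher and the rest lower. The 6 complex I mRNAs called, mt-Cytb, mt-Co1, mt-Co2 and both ATP synthase mRNAs were among them. From SL, 12 of 13 fell, with a median of -0.70 (1.62-fold lower), where 19.8% of all genes were called lower. The member not called was mt-Nd6 from SL, and mt-Nd6 and mt-Co3 from 2iL. The 2iL call leaned on the courses used: it was 1 of 13 without the EpiSC course, 7 without the Neural course and 1 without the block, and from SL it was 5 of 13 without the EpiSC course.

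mt-Co1, the catalytic core subunit of cytochrome c oxidase, went with the group. From 2iL it had 12027, 9928 and 8130.1 CPM at day 1 and 9834, 5961 and 3307 CPM at day 3 (EB, EpiSC and Neural). Each course fell, although the day 3 EB library lay above the day 1 Neural library. The log2 difference was -0.78 ± 0.18 (SE, edgeR adjusted p = 0.0024).

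mt-Nd1, a membrane subunit of complex I with no window in the annotated nuclear copies, fell further. From 2iL it had 2784, 2359 and 1510.0 CPM at day 1 and 1802, 872 and 481 CPM at day 3. The fall was largest in the Neural course and smallest in the EB course. Its log2 difference was -1.21 ± 0.26 from 2iL (SE, edgeR adjusted p = 0.0014) and -0.84 ± 0.13 from SL (SE, edgeR adjusted p = 0.00012).

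mt-Cytb, the only mitochondrial subunit of complex III, had the largest fall from 2iL. It had 1720 CPM (EB), 1773 CPM (EpiSC) and 1166 CPM (Neural) at day 1 and 981, 674 and 393 CPM at day 3. All day 3 libraries lay below all day 1 libraries. The log2 difference was -1.26 ± 0.29 from 2iL (SE, edgeR adjusted p = 0.0026) and -0.76 ± 0.14 from SL (SE, edgeR adjusted p = 0.00044).

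From day 3 to day 7 fewer members passed. From 2iL, 2 of 13 fell, mt-Nd3 (log2 difference -0.80 ± 0.20, edgeR adjusted p = 0.0088) and mt-Co3 (-0.54 ± 0.19, edgeR adjusted p = 0.042), where 13.9% of genes were called lower. Windows shared with the annotated nuclear copies made up 98.0% of mt-Nd3 and 99.9% of mt-Co3, and none of the 6 members with 0% passed. Among these, mt-Nd5 had -0.49 ± 0.18 (edgeR adjusted p = 0.052). Nor did mt-Co2 and mt-Atp6, each with 99.5% of such windows, and mt-Nd4l, with 98.8%, pass. Without the EB course neither mt-Nd3 nor mt-Co3 passed, and the median of the 13 was then 0.10 in place of -0.33. Without the block 1 of 13 passed. From SL, 5 of 13 fell, all of complex I: mt-Nd1, mt-Nd2, mt-Nd3, mt-Nd4 and mt-Nd4l, with log2 differences between -0.39 and -0.65, where 14.6% of genes were called lower. Of these, mt-Nd1 and mt-Nd2 have no window in the annotated nuclear copies. Without the EpiSC course 0 of 13 passed from SL, and 3 without the block.

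mt-Nd3, a small membrane subunit of complex I, had 664, 490 and 279 CPM at day 3 from 2iL and 212, 358 and 253 CPM at day 7. mt-Co3 had 5880, 3705 and 2046 CPM at day 3 and 2519, 2913 and 2138 CPM at day 7. In the EB course mt-Nd3 had 613 CPM at day 1, 452 and 456 CPM on days 1.5 and 2, and 664 CPM on day 3. mt-Co3 had 5241, 4754 and 4321 CPM on days 1, 1.5 and 2 and 5880 CPM on day 3. Both were thus higher on day 3 than on day 1 in that course, and lower on day 7. In the Neural course mt-Co3 was at about the same level on days 3 and 7.

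Over the whole course from 2iL, day 7 against day 0, all 13 fell, with log2 differences from -1.27 (mt-Atp6 and mt-Co3) to -1.97 (mt-Nd6) and a median of -1.43, or 2.69-fold lower, where 29.9% of genes were called lower. It was 13 of 13 without any one course, and between 11 and 13 in the other settings tried. mt-Nd5, a core subunit of complex I, had 2965, 1702 and 874 CPM at day 0 and 651, 568 and 369 CPM at day 7, with no overlap between the days and a log2 difference of -1.73 ± 0.18 (SE, edgeR adjusted p = 8.7e-07). Whether the fall from day 1 to day 7 differed between media was tested directly, and 0 of 13 passed, with 0 at an unadjusted p under 0.05 and 0 by DESeq2, where 3.22% of genes were called in either direction. The median of that difference was -0.33 on the log2 scale, with standard errors of 0.27 to 0.68 per gene, so a difference of this size was not detectable here.

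**Figure D3:**
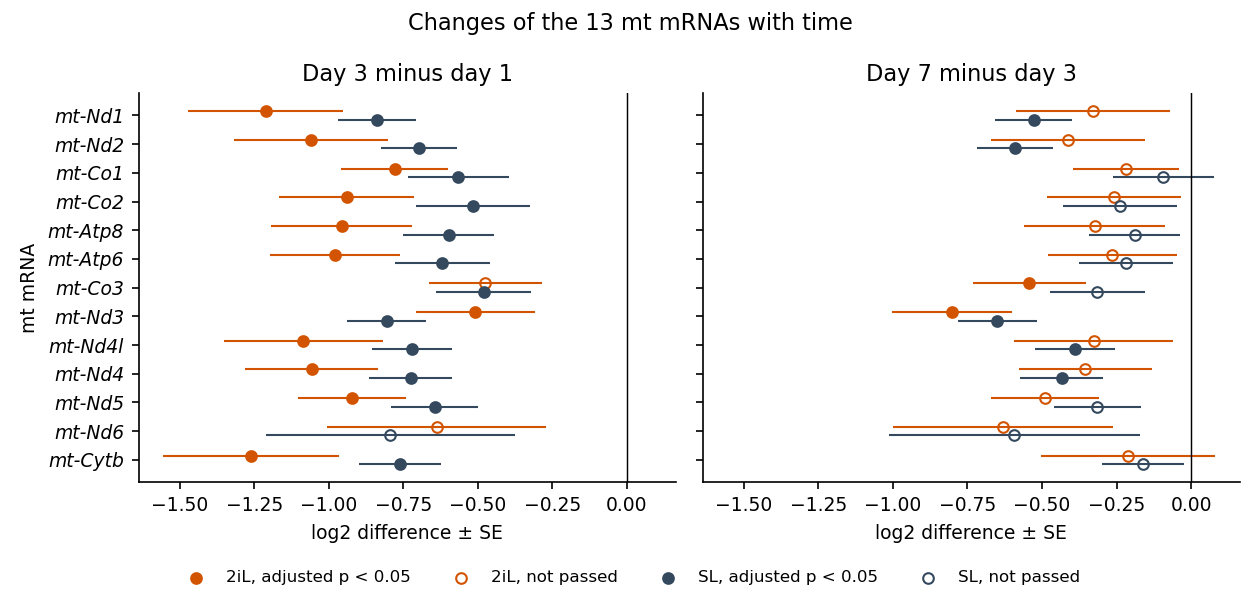
log2 difference (± SE, edgeR) of each mitochondrial mRNA between day 1 and day 3 (left) and between day 3 and day 7 (right), for ESCs from 2iL (orange) and SL (dark blue); filled points have an adjusted p under 0.05. All points on the left lie below 0, with 11 filled for 2iL and 12 for SL; on the right 2 and 5 are filled.

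The nuclear-encoded partners of these subunits also fell, with a median closer to 0. For day 7 against day 0 from 2iL, 56 of the 70 listed respiratory subunits fell and 0 rose, with a median log2 difference of -0.56, where 29.9% of all genes were called lower and 33.8% higher. The largest falls were Atp5g1, a gene for the c subunit of ATP synthase (-1.85 ± 0.14, edgeR adjusted p = 1.8e-08), and Uqcr10 of complex III (-1.43 ± 0.12, edgeR adjusted p = 6.5e-08). Between days 1 and 3 from 2iL, 28 of 70 fell and 1 rose (Atp5g1 and Ndufs8 fell most, and Atp5g3 rose). There 45.6% of all genes tested were called in either direction, 23.6% higher and the rest lower. From SL, 18 of 70 fell and 2 rose (Atp5g1 and Uqcrb fell most, and Atp5d and Atp5g3 rose). There 19.8% of all genes were called lower and 21.6% higher, so the count that fell from SL is not far above that share. As a share of the library, the 70 subunits went from 0.895% ± 0.0675 (SD, n = 3) to 0.560% ± 0.0498 between day 0 and day 7 from 2iL, and their fall in each course was between 1.52-fold and 1.73-fold, against 1.82-fold to 3.51-fold for the mitochondrial mRNAs. The ratio of mitochondrial to nuclear subunit reads was 5.69, 4.04 and 2.60 at day 0 in EB, EpiSC and Neural and between 2.46 and 2.51 at day 7. No test of the difference between the gene groups was made.

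Genes of mitochondrial transcription and RNA processing moved in more than 1 direction. For day 7 against day 0 from 2iL, 7 of 20 genes of transcription and replication fell and 2 rose, and 14 of 18 genes of RNA processing and decay fell and 0 rose. The first of these counts is near the 29.9% of all genes that were called lower. Polrmt, the mitochondrial RNA polymerase, fell (-0.71 ± 0.12, edgeR adjusted p = 9.2e-05), and so did Lrpprc, which stabilises mitochondrial mRNAs (-0.77 ± 0.11, edgeR adjusted p = 2.2e-05). Tfam, the factor that packages mitochondrial DNA and starts transcription, had -0.12 ± 0.10 (edgeR adjusted p = 0.29). Grsf1, a protein of mitochondrial RNA granules (-1.34 ± 0.14), and Gabpa, a nuclear regulator of respiratory genes (-1.30 ± 0.09), fell most. Top1mt, the mitochondrial topoisomerase, rose (1.45 ± 0.35, edgeR adjusted p = 0.0019). Ppargc1a, a coactivator of mitochondrial biogenesis, passed as higher with 1, 0 and 0 reads at day 0 and 9, 7 and 11 reads at day 7, too few at day 0 for a fold.

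The days over which these genes were called differed from gene to gene, and no test compared their timing with that of the mitochondrial mRNAs. Over the first day from 2iL, when 0 of 13 mitochondrial mRNAs were called, Grsf1 (-1.59 ± 0.14, edgeR adjusted p = 8.4e-07) and Fastk (-0.71 ± 0.14) fell and Elac2 (0.74 ± 0.12) and Fastkd5 (0.66 ± 0.11), which process mitochondrial transcripts, rose. Between days 1 and 3 from 2iL, Polrmt fell (-0.40 ± 0.12, edgeR adjusted p = 0.012), whereas Lrpprc (0.15 ± 0.11, edgeR adjusted p = 0.3) and Tfam (0.16 ± 0.10, edgeR adjusted p = 0.18) did not pass. Between days 3 and 7, Lrpprc (-0.83 ± 0.11, edgeR adjusted p = 0.00014) and Tfam (-0.44 ± 0.10, edgeR adjusted p = 0.0045) fell and Polrmt did not pass (-0.33 ± 0.12, edgeR adjusted p = 0.052). From SL the same 3 genes fell or missed the threshold over the same days: Polrmt fell between days 1 and 3 (-0.53 ± 0.10), and Lrpprc (-0.72 ± 0.08) and Tfam (-0.39 ± 0.08) between days 3 and 7.

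Cells from 2iL carried more of several mitochondrial mRNAs than cells from SL early in differentiation. Over days 1 to 3, 8 of 13 were higher from 2iL, where 20.6% of genes were called higher: mt-Nd3, mt-Nd4, mt-Nd5 and mt-Nd6 of complex I, mt-Cytb, mt-Co3, mt-Atp6 and mt-Atp8. The median log2 difference was 0.28, or 1.21-fold, and the largest was mt-Nd6 (0.70 ± 0.22, edgeR adjusted p = 0.011). The count was 1 of 13 without the EB course and 1 without the EpiSC course. The courses of a day were the replicates here too, and days of the same course counted as independent. The p-values therefore measure how courses deviate within a medium and day, not the spread between repeated cultures. Over days 1 to 3 the mean share from 2iL and SL was 3.10% and 2.02% in EB and 2.29% and 1.86% in EpiSC. In Neural it went the other way, with 1.45% from 2iL and 1.60% from SL. The 6 primitive endoderm markers (Gata4, Gata6, Sox17, Dab2, Lama1, Cubn), detected in all libraries, were all lower from 2iL over the same days, with a median log2 difference of -2.52, where 19.6% of genes were called lower. They summed to 38.8 to 603 CPM from 2iL and 734 to 3116 CPM from SL, without overlap, and at day 0 to 203 to 259 CPM against 1035 CPM. Their part in the difference between media was not tested. Over days 5 and 7, 0 of 13 passed, with 1 at an unadjusted p under 0.05 and 0 by DESeq2, where 1.02% of genes were called in either direction.

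At day 0 no difference between the media passed. The log2 differences, 2iL minus SL, ran from 0.09 to 1.08 with a median of 0.52, and 0 of 13 passed, with 1 at an unadjusted p under 0.05 and 0 by DESeq2, where 30.8% of genes were called in either direction. The SL side is 1 library, and the standard errors were 0.28 to 0.54. Without the Neural library from 2iL, 6 of 13 passed as higher in 2iL.

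As a single value per library, the mitochondrial share over days 1 to 7 was 0.85 percentage points higher from 2iL in the EB course, 0.38 higher in the EpiSC course and 0.15 lower in the Neural course, matched by day. The mean difference was 0.361 ± 0.496 percentage points (SD, n = 3 courses), higher in 2 of 3 courses. An exact sign-flip permutation test over the courses gave a two-sided p of 0.5, where 0.25 is the smallest p that 3 courses can give. Of the nuclear machinery over days 1 to 3, Polrmt (-0.02 ± 0.05) and Lrpprc (-0.04 ± 0.04) did not pass, Tfam was lower from 2iL (-0.11 ± 0.04, edgeR adjusted p = 0.028), Pnpt1 and Mterf2 were highest and Ppargc1b and Top1mt lowest among those called.

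EB libraries carried more mitochondrial mRNA than Neural libraries over days 1 to 3. Of the 13 mRNAs, 12 were higher in EB, where 24.5% of genes were called higher, with a median log2 difference of 0.66 (1.57-fold). The member not called was mt-Nd3 (0.19 ± 0.09, edgeR adjusted p = 0.1). Without the 2iL libraries 4 of 13 passed. In EpiSC 7 of 13 were higher than in Neural (median 0.36, against 8.60% of genes called higher), and the count was 0 without the 2iL libraries and 0 without the block. In EB 8 of 13 were higher than in EpiSC (median 0.33, against 21.8%), with 1 without the 2iL libraries and 1 without the block. The EpiSC share lay between the others at all 5 days from 2iL, but from SL it was the highest at day 1 (2.64%) and the lowest at day 3 (1.42%). Here days and media of a time course stood as replicates, so the p-values measure the spread between days and media within the courses, not between repeated cultures.

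The EB excess was larger in cells from 2iL than in cells from SL. In 2iL the EB share was above the Neural share at 5 of 5 days from 1 to 3, by 1.54-fold at day 1, 2.01-fold at day 1.5, 2.52-fold at day 2, 2.41-fold at day 2.5 and 3.02-fold at day 3. In SL it was above at 4 of 5 days, with ratios of 0.93, 1.39, 1.70, 1.30 and 1.18. A direct test of the difference, added after the values had been seen, called 10 of 13 mRNAs (median 0.80 on the log2 scale), all with the larger EB excess from 2iL, where 5.13% of genes were called in that direction. The members not called were mt-Co3, mt-Nd3 and mt-Nd6. Windows shared with the annotated nuclear copies made up 99.9% of mt-Co3 and 98.0% of mt-Nd3 but 0% of mt-Nd6. They also made up 99.5% of mt-Co2 and of mt-Atp6 and 98.8% of mt-Nd4l, which were called. Without the block, which pairs libraries by medium and day, 0 of 13 passed.

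mt-Nd1 had 1520 to 2784 CPM (median 1802) in the 5 EB libraries from 2iL of days 1 to 3 and 481 to 1510.0 CPM (median 746) in the 5 Neural libraries, so the ranges did not overlap. From SL it had 976 to 1499 CPM (median 1266) in EB and 808 to 1553 CPM (median 913) in Neural, which overlapped. mt-Co2, a subunit of cytochrome c oxidase, had 2166 to 3295 CPM in EB and 716 to 2143 CPM in Neural from 2iL, and 1581 to 2355 against 1036 to 1779 CPM from SL. mt-Nd3 overlapped in both media, with 452 to 664 CPM against 279 to 492 CPM from 2iL and 275 to 526 CPM against 328 to 530 CPM from SL.

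Several measurements moved with this excess, and their part in it was not tested. The 2iL EB library was also above the 2iL Neural library at day 0, before differentiation, by the 2.02-fold given above. The 2iL EB libraries had the highest median depth of the course and medium groups. They had 31055159 to 39804240 reads a library against 13093226 to 37071102 in the others. The 10 most abundant genes of a library can include mitochondrial mRNAs: mt-Co1 in 30, mt-Co3 in 6 and mt-Atp6 in 1 of the 45 libraries. These 10 genes took 8.65% to 10.5% of reads in EB and 15.6% to 22.1% in Neural from 2iL over days 1 to 3. From SL they took 9.77% to 13.7% and 13.8% to 20.5%. At day 0 from 2iL they took 9.79%, 9.15% and 16.2% in EB, EpiSC and Neural, so the library with the lowest mitochondrial share had the highest value. The 4 formative markers (Fgf5, Otx2, Dnmt3b, Pou3f1), all detected, summed to 1213 to 3408 CPM in EB and 394 to 908 CPM in Neural from 2iL over days 1 to 3, and to 1118 to 3459 and 462 to 971 CPM from SL. The 6 neural markers summed to 43.4 to 126 CPM in EB and 84.4 to 393 CPM in Neural from 2iL. The EpiSC minus Neural difference was not shown to differ between media by the same test: 0 of 13 passed, with 5 at an unadjusted p under 0.05 and 0 by DESeq2, where 1.71% of genes were called in either direction, and the median was 0.31.

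The nuclear subunits were called in both directions between the same libraries. Over days 1 to 3, 10 of 70 were higher and 17 lower in EB than in Neural, where 24.5% of all genes were called higher and 23.2% lower, with Cox6c (0.39 ± 0.05) and Cox7b (0.36 ± 0.05) of cytochrome c oxidase highest and Uqcrq (-0.51 ± 0.12) and Atp5e (-0.37 ± 0.14) lowest. Of the transcription and replication genes 12 of 20 were higher and 0 lower, among them Polrmt (0.16 ± 0.06, edgeR adjusted p = 0.033) and Tfb1m (0.55 ± 0.11, edgeR adjusted p = 0.00015). Tfam did not pass (0.10 ± 0.04, edgeR adjusted p = 0.061). Of the processing genes 9 of 18 were higher, Lrpprc included (0.23 ± 0.05, edgeR adjusted p = 0.00034), and 1, Fastk, was lower (-0.32 ± 0.06). For the larger EB excess from 2iL, 0 of 70 nuclear subunits passed in the same direction and 12 in the other, where 3.91% of all genes were called in that direction, Atp5e (-0.998 ± 0.202) and Cox7a2 (-0.62 ± 0.14) most.

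**Figure D4:**
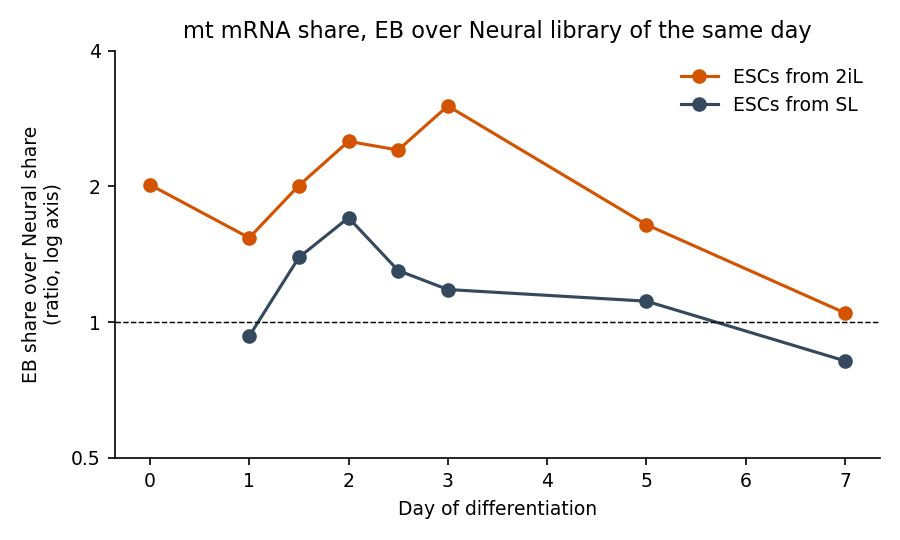
Mitochondrial mRNA share of the EB library divided by that of the Neural library of the same day (log axis), for ESCs from 2iL (orange) and SL (dark blue), with the dashed line at equal shares. From 2iL the ratio starts at 2.02, is 3.02 on day 3 and ends at 1.05 on day 7; from SL it peaks at 1.70 on day 2 and is 0.82 at day 7.

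By days 5 and 7 almost no difference between courses passed. EB against Neural gave 0 of 13 calls, with 1 at an unadjusted p under 0.05 and 1 by DESeq2, where 22.9% of genes were called higher and 22.1% lower. EpiSC against Neural gave 0 of 13, with 0 at an unadjusted p under 0.05 and 0 by DESeq2, where 34.2% were called. In EB against EpiSC, mt-Nd3 alone was lower in EB (-0.62 ± 0.17, edgeR adjusted p = 0.011), where 9.18% of genes were called lower. Set against days 1 to 3, the EB minus Neural difference had dropped for 9 of 13 mRNAs (median -0.68), where 27.4% of genes were called in either direction, 13.2% higher and the rest lower, the exceptions being mt-Co1, mt-Co3, mt-Nd5 and mt-Nd6. Without the 2iL libraries this was 2 of 13, and without the block 0.

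The late libraries differed in their cell type markers. Summed neural markers at days 5 and 7 were 647 to 658 CPM in the Neural libraries from 2iL and 107 to 281 CPM in the EB libraries, where the mesendoderm markers T, Eomes, Mixl1, Gsc and Foxa2 summed to 153 to 754 CPM against 18.9 to 56.9 CPM. Over both media, T, Eomes, Mixl1 and Gsc were higher in EB than in Neural without overlap. Foxa2 did not follow the sum, with 13.9 to 35.2 CPM in EB and 15.1 to 56.6 CPM in Neural. The Neural libraries also carried 2630.3 to 7048 CPM of the 6 primitive endoderm markers from 2iL and 5842 to 8071 CPM from SL, led by Lama1, so that the label does not describe all their cells. Naive markers had gone from 2517 to 4420 CPM at day 0 to at most 312 CPM from 2iL and 295 CPM from SL.

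Within the mitochondrial mRNAs the share of a member varied between libraries by 1.34-fold to 4.92-fold. mt-Co1 made up 29.2% to 40.8% of the 13, and mt-Co3 12.5% to 20.9%. mt-Atp6 ranged from 9.24% to 12.4% and mt-Co2 from 7.29% to 10.6%. The highest share was 1.34 to 1.67 times the lowest for these 4, and also 1.63 times for mt-Nd4 and 1.62 times for mt-Atp8. It was 1.84 times for mt-Nd2, 1.85 for mt-Nd1, 2.01 for mt-Cytb, 2.18 for mt-Nd5 and 2.20 for mt-Nd4l. The 2iL EB day 0 library stood at an end of the range for 6 members, lowest for mt-Co3 (12.5%, against 18.9% and 19.4% in the EpiSC and Neural libraries of that day) and highest for mt-Nd4, mt-Nd4l, mt-Nd5, mt-Nd6 and mt-Cytb. It is therefore the library with the highest mitochondrial share and an unlike makeup, and the day 7 against day 0 count without its course was 13 of 13.

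mt-Nd6, the light-strand mRNA, varied most. It made up 0.158% to 0.780% of the mitochondrial mRNA reads, a 4.92-fold range, against 2.55-fold for mt-Nd3, the next, and 1.34-fold for mt-Atp6, the least variable. Relative to mt-Nd5, its neighbour on the other strand, mt-Nd6 ran from 4.91% (SL EB day 2.5) to 18.4% (2iL EpiSC day 7). The 5 highest shares of mt-Nd6 were in 2iL libraries of the EB and EpiSC courses, early and late: 0.780% in EB and 0.734% in EpiSC at day 0, 0.712% in EpiSC at day 1.5, and 0.711% in EB and 0.677% in EpiSC at day 7.

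The values of mt-Nd6 were not spread evenly. In 8 libraries it lay between 0.158% and 0.218%, and the next library had 0.313%. These 8 were 2iL EpiSC day 2, 2iL Neural days 1 and 7, SL EB days 2.5 and 5, SL EpiSC day 2, and SL Neural days 2 and 7, so they came from both media and all 3 courses. Adjacent days of the same course were not among the 8: 2iL Neural had 0.544% at day 0, 0.213% at day 1 and 0.479% at day 1.5. Some lay just above the gap, with 0.336% in 2iL EpiSC and 0.327% in SL EpiSC at day 2.5. The median share of reads on the wrong strand, taken over 24 genes antisense to abundant hosts, was 0% to 0.0739% in these 8 libraries and 0% to 0.0950% in the other 37. Pooled over the same 24 genes, the share was larger, with 0.132% to 1.27% in the 8 and 0.0895% to 4.51% in the other 37. The depths of the 8 were 13577463 to 22151679 reads against 13093226 to 39804240. The part of other properties of these libraries in the low values was not tested.

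mt-Nd6 over the sum of the other 12 was higher from 2iL than from SL in all 3 courses, averaged over matched days 1 to 7. The log2 ratio differed by 0.76 in EB, 0.58 in EpiSC and 0.08 in Neural, with a mean of 0.473 ± 0.349 (SD, n = 3 courses, no test). Against mt-Nd5 alone the mean difference was 0.282. In Neural the direction changed with the day: the log2 ratio was -8.87 from 2iL and -7.82 from SL on day 1, but -7.90 and -9.30 on day 2. Low libraries named above entered the means of each course, in EB only from SL, and the means were not recomputed without them.

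**Figure D5:**
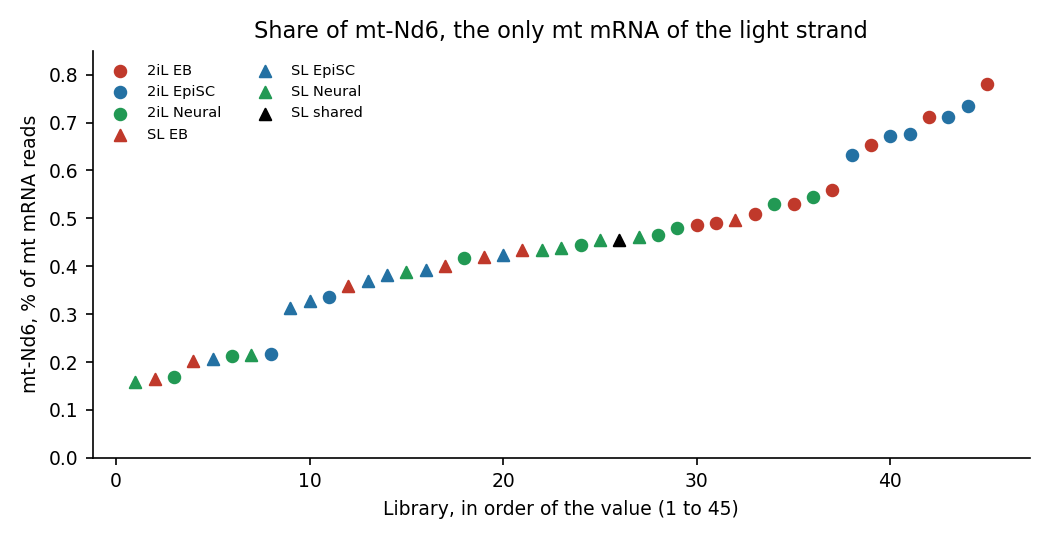
mt-Nd6 as a percent of the reads on the 13 mitochondrial mRNAs in each of the 45 libraries, in ascending order, with shape for the medium and colour for the course. The 8 lowest lie at 0.158% to 0.218%, below a gap that ends at 0.313%, and the highest is 0.780%.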

How the data were processed

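The authors trimmed adaptors with TrimGalore, mapped reads to GRCm38 with TopHat2 and ran featureCounts by strand on Ensembl gene models. They deposited raw counts, with no normalization. Here CPM was the count over the library total, without pseudocount, and rows without a symbol (435) held at most 0.0014% of a library. Fits used edgeR 4.0.16 in R 4.3.3 (TMM, filterByExpr, quasi-likelihood F test, Benjamini-Hochberg adjustment, adjusted p under 0.05), checked on simulated counts, and a standard error is the log2 difference over the square root of F. Days were compared within a medium and media over matched days with course as block, which the titles pair, and courses with medium and day as block. DESeq2 1.42.0 was an alternative. PCR copies are not independent molecules, so depth covers counting error only. Members and gene lists were chosen with earlier results of these data known, and the lists are background, with no test of their own. Named from the lists were Polrmt, Tfam and Lrpprc and, per comparison, the genes with the largest calls. Sequences and positions come from GENCODE transcripts and annotation of GRCm38.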

Additional observations from a re-analysis of the deposited data

Results flagged for a closer look

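For 9 of the 13 mitochondrial mRNAs the EB minus Neural difference at days 5 and 7 was lower than at days 1 to 3, by the edgeR test of the difference itself. This count was 2 without the 2iL libraries and 0 without the replicate block. For 10 of the 13 the EB minus Neural difference of days 1 to 3 exceeded in 2iL-derived cells that of SL-derived cells, by a test added after the values had been seen, and 0 did so without the replicate block. No group had enough libraries for a test of single outlying values.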

How the results depend on the processing

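Counts are of the 13 mitochondrial mRNAs called. Of 153 recomputed counts, 118 stayed within 1.5 times the reported one, 26 were lower and 9 higher. Leaving out 1 course at a time gave 1 to 12 for day 3 against day 1 from 2iL, 0 to 2 for day 7 against day 3 from 2iL, 0 to 1 for day 1 against day 0 from SL, 5 to 13 for day 3 against day 1 from SL, 0 to 4 for day 7 against day 3 from SL, and 1 to 11 for 2iL against SL over days 1 to 3. Leaving out 1 day 0 library from 2iL gave 0 to 6 for 2iL against SL at day 0. Leaving out 1 medium gave 4 to 12 for EB against Neural, 0 to 9 for EpiSC against Neural and 1 to 9 for EB against EpiSC over days 1 to 3, 1 to 2 for EB against Neural and 0 to 1 for EB against EpiSC over days 5 and 7, and 2 to 8 for the late against early difference. Fewer libraries entered each of these fits. Without the replicate block, the pairing by course or by medium and day, the count was 1 for day 3 against day 1 and 1 for day 7 against day 3 from 2iL, 3 for day 7 against day 3 from SL, 0 for EpiSC against Neural and 1 for EB against EpiSC over days 1 to 3, 0 for EB against EpiSC over days 5 and 7, 0 for late against early and 0 for the EB excess between media. With library totals, with or without the mitochondrial reads, it was 1 for day 7 against day 3 from 2iL and 11 for EpiSC against Neural over days 1 to 3, and with full totals 5 for 2iL against SL over days 1 to 3. Restricted to the days compared it was 1 for day 1 against day 0 and 0 for day 7 against day 3 from 2iL and 0 for day 7 against day 3 from SL, and day 1 against day 0 from SL could not be fitted. Without the filter it was 1 for 2iL against SL at day 0, and DESeq2 gave 1 for EB against Neural over days 5 and 7. The median of day 7 against day 3 from 2iL was -0.72 to 0.0957 when leaving out a course, reversed without EB. In EB against EpiSC over days 1 to 3, mt-Nd1 was -0.0365 to 0.62 and mt-Nd4l -0.12 to 0.87 when leaving out a medium, both reversed without 2iL. The mitochondrial share, 2iL minus SL, was 0.118 to 0.614 percentage points without 1 course and 0.351 as a share of protein-coding reads. The cause of these changes was not tested. The design of 1 library per medium, course and day leaves culture, course and library together, and the depth of the files limits mt-Tw and mt-Ti but not the 13 mRNAs.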
